A study of Mus musculus with 17 samples.

Results

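The respiratory chain is built from the products of 2 genomes. Complexes I to IV pass electrons from NADH or succinate to oxygen and complex V, the ATP synthase, makes ATP from the proton gradient that complexes I, III and IV maintain. A small set of core subunits is encoded in the mitochondrial genome and copied inside the organelle by its own polymerase as long transcripts that are cut into single messages, whereas the other subunits, and every subunit of complex II, are nuclear genes translated in the cytosol and imported. White fat cells hold few mitochondria compared with muscle or brown fat, so that the level of these RNAs in a fat sample also depends on which other cells the sample holds.

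The genes described here are the rows of the deposited table whose symbol names a subunit of complex I (Nduf genes of the a, b, c, s and v families with a number), II (Sdha to Sdhd), III (Uqcr), IV (Cox4 to Cox8) or V (Atp5), or a mitochondrial gene for a subunit, without Cox7a1, Cox8b and symbols that end in "-ps". Of 54658 rows, 100 matched. The annotation holds 81 of them as nuclear genes for proteins, 13 as mitochondrial genes and 6 as processed pseudogenes (Atp5k-ps2, Atp5l-ps1, Atp5l-ps2, Cox6c2, Uqcrh-ps1 and Uqcrh-ps2), which are kept apart below. The complex was taken from the symbol alone, so a misleading symbol would put a gene in the wrong complex. By symbol, 36 nuclear genes fall in complex I, 4 in II, 8 in III, 16 in IV and 17 in V. Of the mitochondrial genes 7 fall in complex I, 1 in III, 3 in IV and 2 in V. The symbol rule does not reach Cyc1, the cytochrome c1 of complex III, which stands in a list of electron carriers. Tests were possible for 79 nuclear genes and all 13 mitochondrial genes, since Cox8c (1 read in 1 library) and Cox7b2 (no read) did not reach 1 CPM (read counts scaled to the library total) in 2 libraries.

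RNA was sequenced from 16 mouse libraries with 8 group codes, 2 libraries each. The hosts, of a type given as LD and called male in the design text, were given fibroblasts of mouse embryos (MEF) under the skin over the sternum at 3 to 5 weeks of age. The cells came from pups that were wildtype (WT) or, by their label, lacked leptin (knockout, KO), and they formed tissue resembling fat. Implants were collected as MWM and MWF (WT, described as male and female) and MKM and MKF (KO, male and female), all from animals with destabilization of the medial meniscus, a knee operation done at 16 weeks, and all ending at 28 weeks. The endogenous fat of the animals was visceral with surgery (EVM), visceral without surgery (EVFN), visceral by its genotype label with a code that is not spelled out (EVFY), and subcutaneous with surgery from males (ESM). A further subcutaneous sample, ESF, is not analysed here, and whether 2 libraries of a code came from separate animals is not given. The p-values thus measure only how much these libraries vary, and that variation may be technical.

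The labels name the tissue ganglia, but the defining genes of white fat were high in every library (8 genes, mean 1379 to 4386 CPM) and those of sensory neurons were low (11 genes, mean 0.257 to 5.08 CPM). Lep, the gene that the KO label names, was counted in all 16 libraries, at 1045 CPM (MKM1) to 1726 (MKF2) in implants labelled KO and 806 (MWF1) to 2675 (MWM2) in WT implants, so its count does not separate these labels, and the kind of allele is not given. The libraries EVFN1 and MKM1 resemble groups other than their own, EVFN1 the KO implants and MKM1 the visceral fat, so they are shown singly and left out of group means. Unless stated otherwise, WT implants are 4 libraries, KO implants 3 (MKM2, MKF1 and MKF2), visceral fat 5 and subcutaneous fat 2. Skeletal muscle genes (14 markers) had a mean of 3750 CPM in MWF1, 1529 in ESM2, 1370 in MWM2, 1204 in MWM1, 307 in MWF2 and 230 in MKF2, and 9.43 to 135 in the other 10 libraries. Macrophage genes (10 markers) had a mean of 759 to 933 CPM in the KO implants and 1061 in EVFN1, against 132 to 351 in the other 12 libraries. Fewer cells of a type and less RNA per cell cannot be told apart in such bulk samples.

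Reads of some mitochondrial genes cannot be placed with certainty, and this bears on every level below. A stretch of chromosome 1 (24611535 to 24616197, minus strand, build mm10, GENCODE M21) carries annotated nuclear copies of a block of the mitochondrial genome. The copies matched mt-Co2 (681 aligned bases), mt-Atp6 (678), mt-Co3 (783) and mt-Nd4l (294) at 100% identity and mt-Nd3 (345) at 99.7%, nearly over the whole gene, and they matched 876 of the 1378 bases of mt-Nd4 at 100% and bases 1063 to 1545 of mt-Co1 at 99.8%. The closest annotated copy of mt-Cytb, on chromosome 4, matched at only 92.9%. The first 60 bases of mt-Co3 and of its copy Gm28437 are identical, whereas the same number of bases at the start of mt-Cytb differs from its copy Gm11410 at 3 positions, shown in capitals, so that within these bases a read can be told apart in the second pair and not in the first:
mt-Co3, chrM:8607-8666, plus strand: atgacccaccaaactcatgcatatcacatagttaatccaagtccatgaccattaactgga
Gm28437, chr1:24613912-24613971, minus strand: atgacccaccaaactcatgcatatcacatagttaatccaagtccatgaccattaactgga
mt-Cytb, chrM:14146-14205, plus strand: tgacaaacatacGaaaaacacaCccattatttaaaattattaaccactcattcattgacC
Gm11410, chr4:80003990-80004049, plus strand: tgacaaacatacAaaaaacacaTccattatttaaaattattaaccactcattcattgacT

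The levels followed this division. Per kilobase of exon, the 5 genes with a near-identical copy over nearly their whole length stood at 12.3 to 486 CPM per kb over the 14 libraries, and the 7 genes mt-Nd1, mt-Nd2, mt-Co1, mt-Nd4, mt-Nd5, mt-Nd6 and mt-Cytb at 804 to 13375 CPM per kb. The range was 156 to 486 CPM per kb for mt-Co2, 52.3 to 439 for mt-Atp6, 57.4 to 268 for mt-Co3, 71.1 to 363 for mt-Nd4l and 12.3 to 89.7 for mt-Nd3. By comparison mt-Co1, which shares a transcript of the same strand with them, stood at 4219 to 13375 CPM per kb and mt-Cytb at 2649 to 8632. The copies themselves were counted at 0.788 to 0.912 times the CPM of the gene for mt-Co2 and at 1.38 to 1.62 times for mt-Co3. How reads with several equal matches were treated is not given in the sources used here, and the part of the copies in the low counts was not tested. The levels of these 5 genes are therefore uncertain, and so is a comparison of their level with that of other genes. mt-Atp8, which lies between mt-Co2 and mt-Atp6 and overlaps the latter, has no annotated copy of its own among those compared and stood at 1.47 to 105 CPM per kb. Its overlap with mt-Atp6 lies within the bases matched by the copy Gm10925. The bases of chromosome 1 between Gm10925 and Gm28661, the copy of mt-Co2, were not compared with it. The level of mt-Atp8 is therefore uncertain too.

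**Figure D1:**
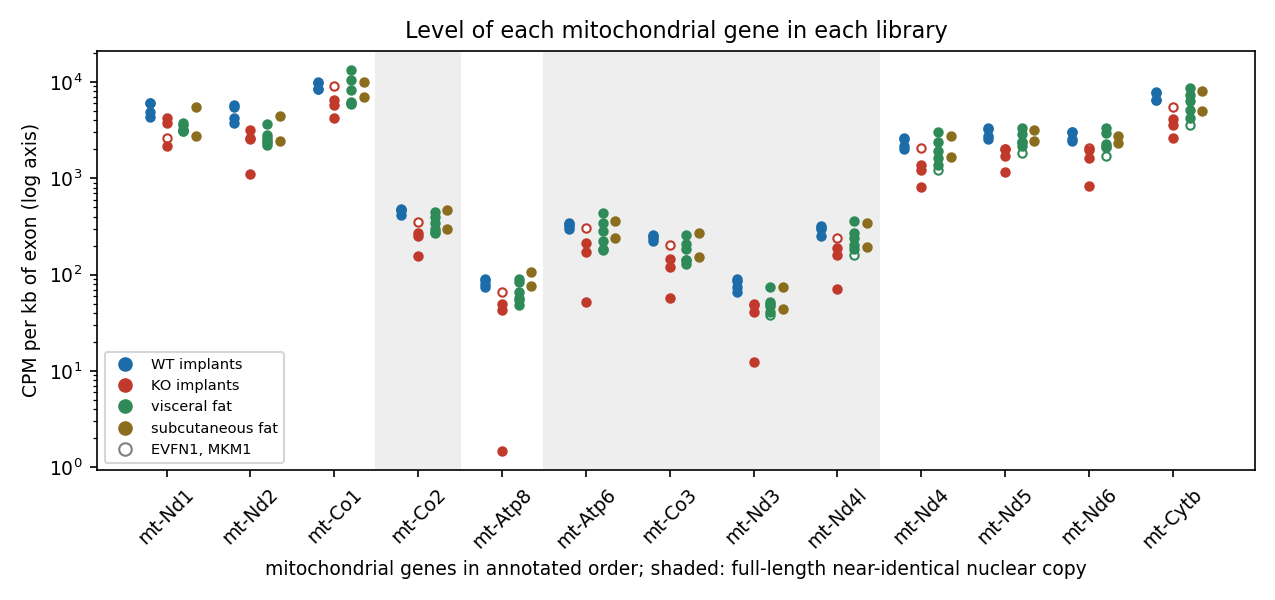
Level of each of the 13 mitochondrial genes in each of the 16 libraries, in CPM per kilobase of exon on a log axis, with genes in their annotated order and libraries coloured by kind of tissue. Shaded genes have a near-identical nuclear copy over nearly their whole length and stand at 12.3 to 486 CPM per kb, and MKF2, a KO implant, is the lowest library in all 13 genes.

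Summed over genes, the mitochondrial subunits made up 1.67% to 5.08% of the reads of a library and the nuclear subunits 0.734% to 1.02%. The 81 nuclear genes summed to 10119 CPM in MWM1, 9659 in MWM2, 9851 in MWF1 and 9150.2 in MWF2. In the KO implants their sum was 7661 CPM in MKM2, 7859 in MKF1 and 7439.8 in MKF2, below every WT implant. Visceral fat spread from 7492 CPM in EVM1 over 8378 in EVFY2, 9150.6 in EVM2 and 9224 in EVFY1 to 9241 in EVFN2, and subcutaneous fat was at 7988 in ESM1 and 10172 in ESM2. Both singly shown libraries were low, with 7695 CPM in EVFN1 and 7338 in MKM1. In means, WT implants had 9695 ± 409 CPM (SD, n = 4), KO implants 7653 ± 210 (SD, n = 3) and visceral fat 8697 ± 764 (SD, n = 5).

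The 13 mitochondrial genes summed to 47911 CPM in MWM1, 47864 in MWM2, 39784 in MWF1 and 38032 in MWF2. The KO implants had 29285 CPM in MKM2, 25380.4 in MKF1 and 16698 in MKF2, again below every WT implant. Visceral fat had 27044 CPM in EVM1, 28891 in EVM2, 34675 in EVFY2, 41241 in EVFN2 and 50822 in EVFY1, a range that includes all 4 WT implants and 1 KO implant, and subcutaneous fat had 30236 in ESM1 and 46614 in ESM2. EVFN1 stood at 25831 CPM, within the KO implants, and MKM1 at 33792, above the other KO implants and below the WT implants. By group code the order from high to low was MWM (mean 47888 CPM), EVFY (42748), the single EVFN2 (41241), MWF (38908), ESM (38425), the single MKM2 (29285), EVM (27968) and MKF (21039). EVFY, EVFN, MWF and ESM in that order do not differ beyond their spread, since the libraries of EVFY (SD 11418, n = 2) enclose those of EVFN and MWF, as do those of ESM (SD 11581, n = 2), and EVFY also encloses both MWM libraries.

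**Figure D2:**
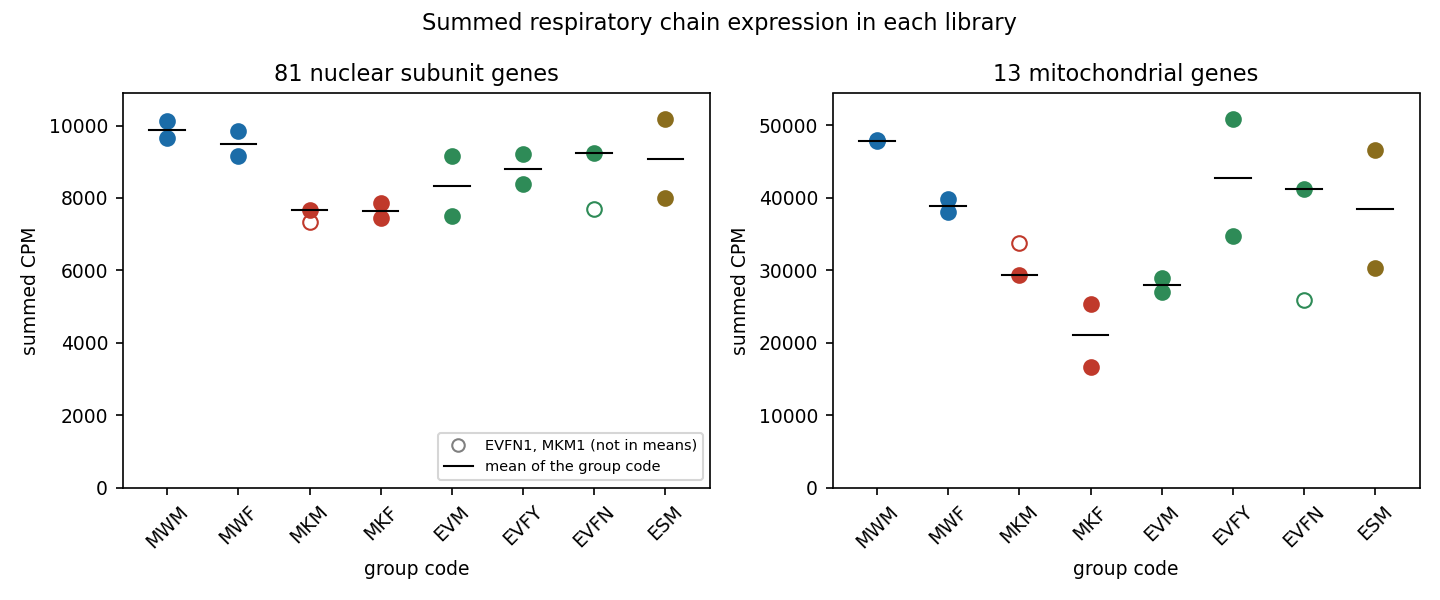
Summed CPM of the 81 nuclear genes (left) and of the 13 mitochondrial genes (right) in each library, by group code, with lines at the mean of a code and open circles for EVFN1 and MKM1, which are in no mean. KO implants (MKM, MKF) are below WT implants (MWM, MWF) in both panels.

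The balance of the 2 genomes is given by the ratio of these sums. The mitochondrial sum was 4.73 times the nuclear one in MWM1, 4.96 in MWM2, 4.04 in MWF1 and 4.16 in MWF2, and 3.82 times in MKM2, 3.23 in MKF1 and 2.24 in MKF2. The groups did not overlap, at 4.47 ± 0.444 (SD, n = 4) against 3.10 ± 0.797 (SD, n = 3), and the difference of the log2 ratios with codes weighted equally was -0.47, ranging from -0.73 to -0.34 as single libraries were left out. Visceral fat ran from 3.16 in EVM2 and 3.61 in EVM1 to 5.51 in EVFY1, a range that holds all 4 WT implants, MKM2 and MKF1 but not MKF2, which was lower. EVM minus EVFY was -0.50 on the log2 scale, with 2 libraries on each side. By the median over genes in place of the sum it was -0.27, and with the 5 mitochondrial genes that have no near-identical copy -0.35. KO implants minus visceral fat was -0.37, and -0.65 by the median over genes. Complex by complex, the KO implants were lower than the WT implants in mean summed CPM in every complex. In these means and in the percentages that follow each library is weighted equally, so that MKF, with 2 libraries, weighs more than the single MKM2. The difference was -45.6% for the mitochondrial and -22.5% for the nuclear genes of complex I, and -51.7% and -24.5% for complex III. It was -40.8% and -16.7% for complex IV and -55.2% and -20.6% for complex V. The 4 genes of complex II, which has no mitochondrial subunit, differed by -23.3%, close to the nuclear genes of the other complexes. In each of these 9 sums the 3 KO implants lay below all 4 WT implants. With the 5 mitochondrial genes that have no near-identical copy (mt-Nd1, mt-Nd2, mt-Nd5, mt-Nd6 and mt-Cytb) the mitochondrial sum differed by -46.8%.

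Between KO and WT implants, which differ by the leptin label of the implanted cells, all 13 mitochondrial genes and 78 of 79 nuclear genes had a lower mean in the KO implants. A gene is called below where limma, fitted to log2(CPM + 0.5) of all 17871 genes with at least 1 CPM in 2 libraries, gives a Benjamini-Hochberg adjusted p under 0.05. Of the mitochondrial genes 5 were called lower, and of the nuclear genes 4, or 5.06%, while 4.1% of all genes tested were called lower and 6.67% higher. The nuclear count is thus near the background. The sizes differed from it: the median log2 difference was -1.01 over the mitochondrial genes and -0.35 over the nuclear genes, against -0.06 over all genes. Libraries did not overlap, KO below WT, for 13 of 13 mitochondrial and 63 of 79 nuclear genes (79.7%), against 12.6% of all genes tested. The calls rest on few libraries. Of the mitochondrial genes none was called without MWM1, MWM2 or MWF1, 1 without MWF2 or MKF2 and 11 without MKF1 or MKM2. Of the nuclear genes none was called without MWM1, MWM2, MWF1 or MKF2, 1 without MKF1, 7 without MKM2, 8 without EVM1 or EVM2 and 13 without ESM1 or ESM2. With all 16 libraries as labelled no gene of either kind was called by limma or edgeR, although 10 mitochondrial and 58 nuclear genes still did not overlap between 4 and 4 libraries (6.19% of all genes tested).

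Among the mitochondrial genes, mt-Co3, a core subunit of complex IV, had 199.9, 187, 198 and 175 CPM in MWM1, MWM2, MWF1 and MWF2 and 114, 93.9 and 44.99 CPM in MKM2, MKF1 and MKF2. This gave a log2 difference of -1.14 ± 0.28 (SE, adjusted p = 0.0358 by limma). mt-Cytb, the cytochrome b of complex III, had 8990.4, 8835, 7414 and 7485 CPM in MWM1, MWM2, MWF1 and MWF2 and 4732, 4088 and 3031 CPM in MKM2, MKF1 and MKF2. On the log2 scale the difference was -0.997 ± 0.23 (SE, adjusted p = 0.0285 by limma). In both genes MKF2 was lowest and the WT and KO implants were separate. The complex I subunit mt-Nd4 went from 3569.9, 3526, 2986 and 2808 CPM in MWM1, MWM2, MWF1 and MWF2 to 1878, 1661 and 1108 CPM in MKM2, MKF1 and MKF2. The fitted log2 difference was -1.01 ± 0.25 (SE, adjusted p = 0.0381 by limma). For mt-Co2, which carries the copper center that takes up electrons from cytochrome c, the log2 difference was -0.97 ± 0.21 (SE, adjusted p = 0.0240 by limma), with 332, 319, 319 and 285 CPM in MWM1, MWM2, MWF1 and MWF2 and 187, 174 and 107 CPM in MKM2, MKF1 and MKF2. mt-Nd5, part of the proton-pumping arm of complex I, had 5875, 6025, 4957 and 4669 CPM in MWM1, MWM2, MWF1 and MWF2 and 3709, 3099 and 2145 CPM in MKM2, MKF1 and MKF2. Fitted over all genes, the log2 difference was -0.79 ± 0.21 (SE, adjusted p = 0.0435 by limma).

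The other 8 mitochondrial genes were not called. The largest estimate was that of mt-Atp8, a small subunit of complex V, at -1.69 ± 0.68 (SE, adjusted p = 0.144 by limma), with 10.2, 8.70 and 0.300 CPM in MKM2, MKF1 and MKF2 against 18.2, 17.9, 15.4 and 16.4 CPM in MWM1, MWM2, MWF1 and MWF2. Without MKF2 the estimate was -0.81, and without MKM2 it was -2.68. The placement of mt-Atp8 reads is uncertain, as described above. mt-Co1, the catalytic subunit of complex IV and the most abundant member per length, had 15571, 15248, 13217 and 13003 CPM in MWM1, MWM2, MWF1 and MWF2 and 10065, 8925 and 6518 CPM in MKM2, MKF1 and MKF2. The log2 difference was -0.70 ± 0.24 (SE, adjusted p = 0.0976 by limma). mt-Nd1, the subunit of complex I nearest to the start of the transcript among these genes, had the smallest difference of the 13, with 5772, 5826, 4658 and 4117 CPM in MWM1, MWM2, MWF1 and MWF2 and 4089.5, 3595 and 2091 CPM in MKM2, MKF1 and MKF2. This gave a log2 difference of -0.59 ± 0.28 (SE, adjusted p = 0.205 by limma). The remaining 5 had log2 differences between -0.85 (mt-Nd6) and -1.19 (mt-Nd3), with adjusted p-values from 0.0536 to 0.0785 by limma for mt-Nd6, mt-Nd4l, mt-Nd3, mt-Nd2 and mt-Atp6. mt-Nd6, the only one of the 13 on the other strand, overlaps mt-Nd5, and their reads can be told apart in that overlap only if strand was used in counting, which is not given.

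The 4 called nuclear genes had narrow ranges in the KO implants. Ndufb11, an accessory subunit of complex I encoded on chromosome X (20615326 to 20617619), had 89.1, 82.1, 96 and 86.3 CPM in MWM1, MWM2, MWF1 and MWF2 and 62.5, 64.3 and 59.8 CPM in MKM2, MKF1 and MKF2. On the log2 scale the difference was -0.50 ± 0.11 (SE, adjusted p = 0.0208 by limma). Uqcrh, the hinge protein of complex III on chromosome 4 (116066965 to 116075071), had 102, 93.2, 106 and 106 CPM in MWM1, MWM2, MWF1 and MWF2 and 72.9, 72.1 and 70.2 CPM in MKM2, MKF1 and MKF2. The fitted log2 difference was -0.50 ± 0.11 (SE, adjusted p = 0.0252 by limma). Atp5h, the d subunit of the stalk of complex V, had 125, 127, 123 and 133 CPM in MWM1, MWM2, MWF1 and MWF2 and 95.5, 95.2 and 95.2 CPM in MKM2, MKF1 and MKF2. Fitted over all genes, the log2 difference was -0.41 ± 0.11 (SE, adjusted p = 0.0425 by limma). Ndufa3, a further accessory subunit of complex I, had 48.8, 45.2, 44.3 and 45.4 CPM in MWM1, MWM2, MWF1 and MWF2 and 35.5, 34.1 and 33.2 CPM in MKM2, MKF1 and MKF2. The log2 difference was -0.40 ± 0.10 (SE, adjusted p = 0.0304 by limma). In each the WT and KO implants were separate, and the visceral libraries fell in between or overlapped with either side, from 67.7 to 83.1 CPM for Ndufb11 and from 72.7 to 91.8 for Uqcrh. EVFN1 was close to the KO implants in all 4, with 65.7, 73.4, 95.1 and 31.6 CPM in the order given.

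Of the 10 nuclear core subunits examined none was called between KO and WT implants, and neither was Cox6a2, the muscle form of a complex IV subunit described below, which had the largest nuclear estimate. For Cox6a2 the log2 difference was -2.49 ± 1.49 (SE, adjusted p = 0.313 by limma). Sdha, the flavoprotein of complex II, had 388, 388, 413 and 360.2 CPM in MWM1, MWM2, MWF1 and MWF2 and 270.2, 289 and 269 CPM in MKM2, MKF1 and MKF2. This gave a log2 difference of -0.49 ± 0.15 (SE, adjusted p = 0.0750 by limma). Ndufv1, which takes electrons from NADH, had 147, 144, 153 and 128 CPM in MWM1, MWM2, MWF1 and MWF2 and 109, 107 and 105 CPM in MKM2, MKF1 and MKF2. On the log2 scale the difference was -0.40 ± 0.13 (SE, adjusted p = 0.0747 by limma). Atp5b, the catalytic subunit of complex V and the nuclear member with the most reads, had 1219.6, 1211, 1157 and 1087 CPM in MWM1, MWM2, MWF1 and MWF2 and 923, 990.4 and 934 CPM in MKM2, MKF1 and MKF2. The fitted log2 difference was -0.31 ± 0.16 (SE, adjusted p = 0.238 by limma). The estimates were -0.44 for Ndufs1, -0.41 for Uqcrfs1, -0.34 for Atp5a1, -0.34 for Cox5a, -0.33 for Uqcrc1, -0.31 for Sdhb and -0.20 for Cox4i1, with adjusted p-values of 0.145 to 0.328 by limma. Complex IV was the least separated, with 6 of 14 tested nuclear genes not overlapping, against 30 of 36 in complex I, 4 of 4 in II, 8 of 8 in III and 15 of 17 in V. Cox7a2l, which takes part in joining complexes III and IV, was the 1 nuclear gene with no lower mean (0.01 ± 0.12, SE), and Cox6a1 was nearly level (-0.03 ± 0.15, SE). Of the other forms of complex IV subunits, for Cox4i2, a form known from lung, the log2 difference was -0.09 ± 0.26 (SE, adjusted p = 0.853 by limma), for Cox7a2 the log2 difference was -0.31 ± 0.11 (SE, adjusted p = 0.106 by limma), and for Cox7b the log2 difference was -0.24 ± 0.11 (SE, adjusted p = 0.209 by limma).

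The difference was present in both sexes as labelled. In females the median of the log2 differences was -1.15 over the mitochondrial and -0.33 over the nuclear genes (2 against 2 libraries), and 13 of 13 mitochondrial and 67 of 79 nuclear genes did not overlap. The share of all genes without overlap was not computed for this comparison. With 2 against 2 libraries it can be large: MWM lay below MWF in 43.9% of all genes tested. In males, with the single MKM2 against 2 libraries, the medians were -0.76 and -0.38. Skeletal muscle genes differed in the same direction. Their mean was 307 to 3750 CPM in WT and 9.43 to 230 in KO implants, with 1 of 13 called lower. Of the sensory neuron genes 7 of 9 were called lower (median -1.07). Of the satellite glia and Schwann cell genes 5 of 8 were called lower and 1 higher (median -0.89). Macrophage genes differed in the other direction (170 to 230 against 759 to 933 CPM, 10 of 10 called higher). The part of these lists in the result was not tested. Without MWF1 and ESM2, the libraries with most muscle RNA, the median differences were -0.99 and -0.32, with 2 mitochondrial genes called.

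**Figure D3:**
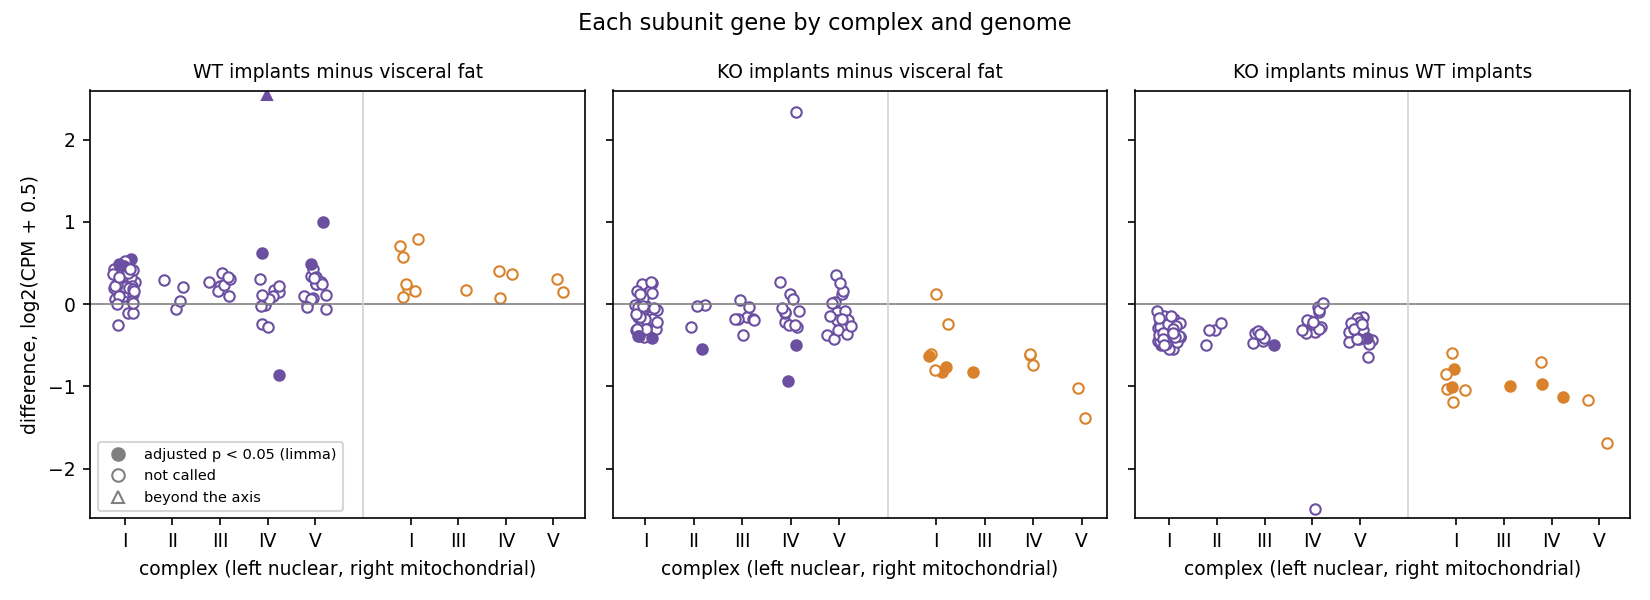
Log2 difference of each tested subunit gene in 3 comparisons, with nuclear genes by complex on the left of each panel and mitochondrial genes on the right; filled symbols have an adjusted p under 0.05 in limma, and a triangle marks Cox6a2, which at 4.83 lies beyond the axis. In the right panel nearly all points are below 0 and the mitochondrial ones (median -1.01) lie lower than the nuclear ones (median -0.35).

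The regulatory sequence of the 2 called nuclear genes with the largest falls is shown because these genes moved together in the KO implants. RefSeq (GRCm38.p6) gives the start of 64 of the 81 nuclear genes. The 250 bases before the start of Uqcrh hold 1 match to the core of the site bound by ETS factors such as GABP, CCGGAAG or its reverse complement (capitals), and those of Ndufb11 hold none of the motifs searched:
Uqcrh, chr4:116075071-116075320, minus strand: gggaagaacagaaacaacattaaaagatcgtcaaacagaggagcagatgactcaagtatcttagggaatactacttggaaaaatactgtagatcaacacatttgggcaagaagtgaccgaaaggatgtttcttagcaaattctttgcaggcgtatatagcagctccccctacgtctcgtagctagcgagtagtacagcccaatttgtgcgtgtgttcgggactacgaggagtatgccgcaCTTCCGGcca
Ndufb11, chrX:20617620-20617869, minus strand: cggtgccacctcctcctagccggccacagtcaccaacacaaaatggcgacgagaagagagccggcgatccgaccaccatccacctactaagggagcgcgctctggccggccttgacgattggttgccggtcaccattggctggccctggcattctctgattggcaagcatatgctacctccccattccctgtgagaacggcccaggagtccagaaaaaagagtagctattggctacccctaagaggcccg

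Over the nuclear members with a RefSeq start, CCGGAAG on either strand occurred in 12 of 64 windows of this length (18.8%), against 7.83% of the windows of all 27025 genes. The palindromic site of NRF1 occurred in 4 (6.25% against 0.877%). The shorter letters TGCGCA, which lie within that site, occurred in 13 (20.3% against 7.36%). The site of ERR receptors, AAGGTCA, occurred in 5 (7.81% against 4.70%), and that of YY1, AAGATGGCG, in 1 (1.56% against 0.7105%). The letters of a TATA box, TATAAA, were less frequent in the members, in 6 (9.38% against 14.3%). These are matches of letters and not sites shown to be bound.

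Between KO implants and visceral fat the medians were below 0 for both kinds of gene, and further below for the mitochondrial ones. All implants came from operated animals, but of the visceral libraries only EVM1 and EVM2 are labelled with surgery. In the mitochondrial sum EVM1 and EVM2, at 27044 and 28891 CPM, overlapped with the KO implants (16698 to 29285 CPM). EVFY1, EVFY2 and EVFN2 stood at 34675 to 50822 CPM. Surgery or code and kind of tissue thus cannot be told apart in this comparison. Of the mitochondrial genes 4 were called lower and none higher, and of the nuclear genes 6 lower (7.59%) and none higher, against 8.25% of all genes called lower and 16.4% higher. Median log2 differences were -0.74 and -0.15, against 0.08 over all genes. In the same comparison 10 of 10 macrophage markers were called higher (median 2.03) and 4 of 8 white adipocyte markers lower (median -0.77). All 8 liver markers were called higher (6.78), as were 6 of 9 sensory neuron markers (1.58) and 4 of 8 satellite glia and Schwann cell markers (0.60). Their part in the result was not tested. Libraries did not overlap, KO below visceral, in 5 of 13 mitochondrial and 12 of 79 nuclear genes, against 11.7% of all genes tested. The mitochondrial count was 0 without EVFN2, EVM2, MKF2, MWM1 or MWM2, 1 without EVFY1, MWF1 or MWF2, 2 without EVM1, 8 without MKM2 and 10 without MKF1. The nuclear count was 0 without MKF1, MKF2, MWM1 or MWM2, 1 without EVFY1 or EVM2, 2 without EVFN2, 3 without MKM2 and 12 without EVM1. Neither kind of gene had a call with all 16 libraries as labelled, by limma or edgeR, and there no mitochondrial and 1 nuclear gene lay below without overlap (0.173% of all genes tested).

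The called mitochondrial genes were mt-Cytb, mt-Nd4, mt-Nd6 and mt-Nd5. For mt-Cytb the visceral libraries had 4795, 5904, 9875, 7319 and 8364 CPM in EVM1, EVM2, EVFY1, EVFY2 and EVFN2, all above the KO implants given above. Fitted over all genes, the log2 difference was -0.83 ± 0.23 (SE, adjusted p = 0.0288 by limma). For mt-Nd4 the values were 1879.7, 2263, 4190, 2662 and 3293 CPM in EVM1, EVM2, EVFY1, EVFY2 and EVFN2. The log2 difference was -0.83 ± 0.25 (SE, adjusted p = 0.0403 by limma). The estimates for mt-Nd6 (-0.76 ± 0.23, SE) and mt-Nd5 (-0.64 ± 0.20, SE) had adjusted p-values of 0.0428 and 0.0493 by limma. The 6 nuclear genes were Cox6b2 (1.43, 0.580 and 1.12 CPM in MKM2, MKF1 and MKF2), Sdha, Cox8a, Ndufb9, Ndufv3 and Ndufa7. Sdha had 318, 411, 458, 335 and 459 CPM in EVM1, EVM2, EVFY1, EVFY2 and EVFN2, so that all visceral libraries exceeded the KO implants. This gave a log2 difference of -0.55 ± 0.15 (SE, adjusted p = 0.0288 by limma). Cox8a, a small subunit of complex IV and the nuclear member with the highest level per length, had 263, 322, 332, 295 and 344 CPM in EVM1, EVM2, EVFY1, EVFY2 and EVFN2 against 222, 237 and 215 CPM in MKM2, MKF1 and MKF2. On the log2 scale the difference was -0.49 ± 0.15 (SE, adjusted p = 0.0410 by limma). Ndufb9, Ndufv3 and Ndufa7, accessory subunits of complex I, had estimates of -0.42, -0.39 and -0.28.

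The estimates differed along the mitochondrial genome. Against visceral fat, mt-Nd1, the first gene of the set, was at 0.12 ± 0.27 (SE) and mt-Nd2, the second, at -0.24 ± 0.32, while the 11 genes that follow lay between -0.60 and -1.39. The same 2 genes were those with the highest estimates between WT implants and visceral fat, at 0.71 ± 0.24 and 0.79 ± 0.28, where the other 11 lay between 0.07 and 0.58. None of these was called (adjusted p = 0.784 and 0.629 in the first comparison and 0.0640 and 0.0736 in the second, by limma), and the 2 comparisons share the visceral libraries. As a ratio to mt-Cytb, mt-Nd1 stood at 0.864 in MKM2, 0.880 in MKF1 and 0.690 in MKF2. It stood at 0.642, 0.659, 0.628 and 0.550 in MWM1, MWM2, MWF1 and MWF2, and at 0.355 (EVFN2) to 0.612 (EVM1) in visceral fat, so the KO implants were highest. The ratio of mt-Nd2 to mt-Cytb did not separate the groups in this way, at 0.689, 0.662 and 0.381 in MKM2, MKF1 and MKF2, 0.523 (MWF2) to 0.672 (MWM2) in WT implants and 0.353 (EVFN2) to 0.482 (EVM1) in visceral fat. MKF2 was thus below every WT implant and within visceral fat, and between KO and WT implants the estimate for mt-Nd2 (-1.03) was near the median of the 13 genes. In the ratio of mt-Nd1 to mt-Cytb, EVFN1, at 0.833, fell among the KO implants, and MKM1, at 0.399, among visceral fat. The 2 ribosomal RNA genes that lie just before mt-Nd1, whose RNA the depletion step removes to an unknown degree, summed to 802 ± 292 CPM (SD, n = 3) in KO implants, 744 ± 164 (SD, n = 5) in visceral fat and 1286 ± 405 (SD, n = 4) in WT implants, with overlap between KO implants and either side. Both ratios were examined after the values were seen and were not tested.

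**Figure D4:**
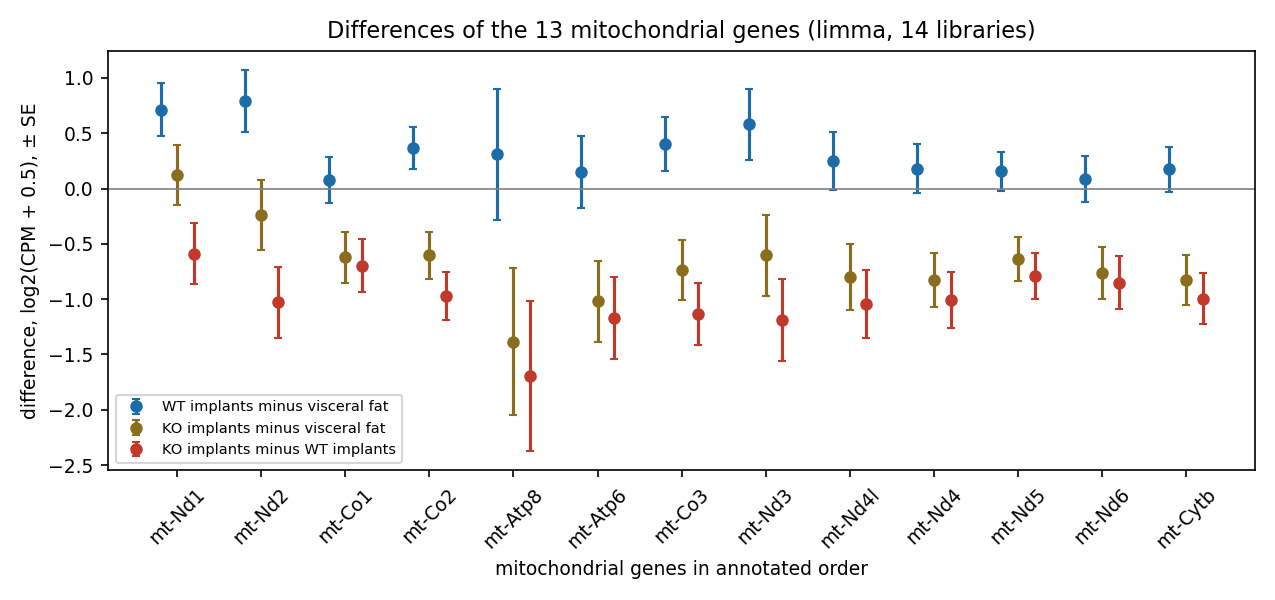
Log2 differences with standard errors of the 13 mitochondrial genes in annotated order, for WT implants minus visceral fat, KO implants minus visceral fat and KO minus WT implants (limma, 14 libraries). mt-Nd1 and mt-Nd2 stand above the later genes in both comparisons with visceral fat, at 0.71 and 0.79 for WT and 0.12 and -0.24 for KO implants, and mt-Atp8 has the widest error.

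Between WT implants and visceral fat the medians of both kinds of gene were above 0. Here too all implants came from operated animals and only EVM1 and EVM2 of the visceral libraries are labelled with surgery. Surgery or code and kind of tissue again cannot be told apart. Of the nuclear genes 9 were called higher (11.4%) and 1 lower, against 15.9% of all genes called higher and 6.5% lower, so that the count is not above the background. No mitochondrial gene was called by limma (2 at an unadjusted p under 0.05) or edgeR, and 2 were by DESeq2. Medians were 0.22 over the nuclear and 0.25 over the mitochondrial genes, against 0.11 over all genes. White adipocyte markers were called lower in 6 of 8 (median -0.73), while 8 of 8 liver (8.68), 5 of 8 lymphocyte (2.32) and 5 of 13 skeletal muscle markers (6.60) were called higher. Their part in the result was not tested. Libraries did not overlap, WT above visceral, in 26 of 79 nuclear genes (32.9%) and 2 of 13 mitochondrial genes, against 9.36% of all genes tested. The nuclear count was 1 without MWM1, 2 without MWM2, 3 without MWF1, 5 without EVFY1 or EVFY2, 6 without EVM1, MKF1, MKF2 or MWF2, 20 without ESM1 and 21 without ESM2. A single mitochondrial gene was called without ESM1, ESM2, MKF1 or MKF2.

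The largest rise was that of Cox6a2, on chromosome 7 (128205435 to 128206387), the form of subunit 6a of complex IV that heart and skeletal muscle use in place of Cox6a1. It had 35.5, 72.8, 169.5 and 11.3 CPM in MWM1, MWM2, MWF1 and MWF2 and 0.893, 0.698, 3.32, 0.164 and 1.84 CPM in EVM1, EVM2, EVFY1, EVFY2 and EVFN2. The fitted log2 difference was 4.83 ± 1.29 (SE, adjusted p = 0.0300 by limma). In the KO implants it had 6.82, 5.89 and 14.9 CPM in MKM2, MKF1 and MKF2, in subcutaneous fat 0.624 and 79.8 CPM in ESM1 and ESM2, and 4.06 and 4.30 CPM in EVFN1 and MKM1. As a share of Cox6a1 and Cox6a2 together it made up 51.6% in MWF1, 25.4% in MWM2, 25% in ESM2 and 12.4% in MWM1, and between 0.0678% (EVFY2) and 6.74% (MKF2) elsewhere. The 4 libraries with the most Cox6a2 are the 4 with the highest mean of muscle markers, and the part of muscle RNA in this result was not tested. Among the WT implants Cox6a1 ran from 159 CPM in MWF1, which had the most Cox6a2, to 251 in MWM1.

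**Figure D5:**
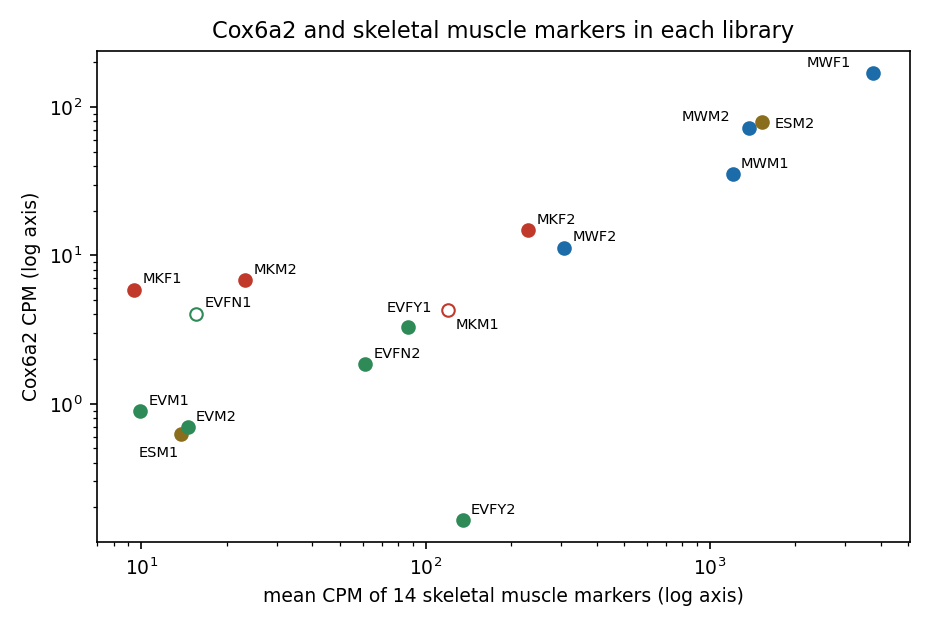
CPM of Cox6a2 against the mean CPM of 14 skeletal muscle markers in each of the 16 libraries, both on log axes; open symbols are EVFN1 and MKM1. MWF1, ESM2, MWM2 and MWM1 stand apart at the upper right, with 35.5 to 170 CPM of Cox6a2.

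Atp5g1, on chromosome 11 (96068852 to 96075670), 1 of 3 genes for the same c subunit of the complex V rotor, was the next. It had 91.1, 75.8, 122 and 69.4 CPM in MWM1, MWM2, MWF1 and MWF2 against 49.7, 42.2, 39.2, 48.95 and 41.1 CPM in EVM1, EVM2, EVFY1, EVFY2 and EVFN2, without overlap. Fitted over all genes, the log2 difference was 0.997 ± 0.27 (SE, adjusted p = 0.0302 by limma). The other 2 genes for this subunit were not called, with differences of 0.08 ± 0.11 (SE) for Atp5g2 and 0.33 ± 0.11 (SE) for Atp5g3. ESM2, at 78.6 CPM, and ESM1, at 32.1 CPM, differed in Atp5g1 as they do in muscle markers (1529 and 13.7 CPM), and the part of muscle RNA was not tested. Cox5a, a nuclear subunit of complex IV, had 92.2, 83.9, 101 and 78.7 CPM in MWM1, MWM2, MWF1 and MWF2 and 57.6, 67.7, 56.9, 50.1 and 57.03 CPM in EVM1, EVM2, EVFY1, EVFY2 and EVFN2. The log2 difference was 0.62 ± 0.18 (SE, adjusted p = 0.0424 by limma). The 6 other rising genes, Ndufa11, Atp5mpl, Ndufs5, Ndufs4, Ndufb7 and Ndufa8, had log2 differences of 0.40 to 0.55. Ndufs5 was the steadiest, with 52.2, 53.4, 39.5 and 47.4 CPM in MWM1, MWM2, MWF1 and MWF2 and 34.4, 31.6, 36.7, 31.1 and 35.4 CPM in EVM1, EVM2, EVFY1, EVFY2 and EVFN2. This gave a log2 difference of 0.48 ± 0.09 (SE, adjusted p = 0.00919 by limma). The 1 falling gene was Cox6b2, a form of subunit 6b known from testis, which was low throughout, with 0.752, 1.19, 1.54 and 1.34 CPM in MWM1, MWM2, MWF1 and MWF2 and 2.96, 1.40, 3.22, 4.71 and 2.02 CPM in EVM1, EVM2, EVFY1, EVFY2 and EVFN2. On the log2 scale the difference was -0.86 ± 0.26 (SE, adjusted p = 0.0429 by limma); the common form Cox6b1 stood at 115 to 154 CPM in these libraries and the KO implants and was not called (0.15 ± 0.09, SE).

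Against subcutaneous fat, 1 nuclear gene and no mitochondrial gene was called higher in WT implants, against 8.57% of all genes called higher and 1.82% lower, and none was called lower. The gene was Ndufs5, with 30.5 and 33.4 CPM in ESM1 and ESM2 in subcutaneous fat. The fitted log2 difference was 0.57 ± 0.12 (SE, adjusted p = 0.0190 by limma). Without ESM1, MWM1 or MWM2 it was not called, and without ESM2 the count was 6. The 2 subcutaneous libraries differed from each other in both sums (7988 and 10172 CPM nuclear, 30236 and 46614 mitochondrial), and libraries were separate, WT above, in 8 nuclear genes and in no mitochondrial gene (19.2% of all genes tested). At an unadjusted p under 0.05 there were 8 nuclear and no mitochondrial genes; edgeR called none and DESeq2 1.

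Between visceral and subcutaneous fat none of the 92 genes was called by limma or edgeR, against 0.565% and 0.632% of all genes called higher and lower; 1 nuclear gene, Cox6b2 (0.86 ± 0.32, SE, adjusted p = 0.391), had an unadjusted p under 0.05, and DESeq2 called 1. The next by p was Ndufb2, with a difference of -0.44 and an adjusted p of 0.553. No gene of either kind separated the 5 visceral from the 2 subcutaneous libraries (7.06% of all genes did so with visceral above and 4.06% below). With 2 subcutaneous libraries that differ from each other, this comparison is imprecise: the standard error for mt-Cytb was 0.25 on the log2 scale. The subcutaneous libraries are labelled with surgery, and of the visceral ones only EVM1 and EVM2 are.

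The WT implants labelled male and female differed in the mitochondrial genes by less than the test could call. No gene was called by limma or edgeR in MWM minus MWF (1.47% of all genes called higher and 12.3% lower); 2 nuclear genes and no mitochondrial gene had an unadjusted p under 0.05, and DESeq2 called 7 nuclear genes higher. All 13 mitochondrial estimates were above 0, with a median of 0.26 against 0.07 for the nuclear genes and -0.18 for all genes, and 11 of 13 mitochondrial genes did not overlap between 2 and 2 libraries, male above (17.5% of all genes tested). The nuclear genes with the smallest p were Cox7a2l, with 101, 83.1, 127 and 125 CPM in MWM1, MWM2, MWF1 and MWF2 (-0.45 ± 0.15, SE, adjusted p = 0.0860 by limma), and Ndufb4 (0.31, adjusted p = 0.114). Lymphocyte markers, which were high in MWF1 and MWF2 (mean 838 and 292 CPM against 68.2 and 91.3 in MWM1 and MWM2), moved the other way, and their part was not tested.

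EVM and EVFY, visceral fat with surgery and visceral fat of the unexplained code, gave no call by limma or edgeR either (0.47% of all genes called higher and 0.375% lower), with 4 nuclear and 2 mitochondrial genes at an unadjusted p under 0.05. All 13 mitochondrial estimates were below 0, with a median of -0.60 against -0.10 for the nuclear and -0.04 for all genes. EVM lay below EVFY without overlap in 12 of 13 mitochondrial and 22 of 79 nuclear genes, against 24.4% of all genes tested. The nuclear genes with the smallest p were Ndufb8 (0.54, adjusted p = 0.182) and Ndufa3 (-0.38, adjusted p = 0.200). Macrophage markers were higher in EVM (mean 351 and 283 CPM) than in EVFY (135 and 186), and their part was not tested.

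Genes that serve the chain without being subunits are given next. Assembly factors, which build the complexes, had 9 of 43 tested genes called higher and none lower between WT implants and visceral fat (median 0.24), 2 higher and none lower between KO implants and visceral fat (0.08), and none higher and 1 lower between KO and WT implants (-0.17). The 1 was Cox14, at -0.47 ± 0.12 (SE, adjusted p = 0.0360 by limma), which was also among the 9, at 0.48 ± 0.10. Of 77 mitochondrial ribosomal proteins, which translate the 13 messages, 17 were called higher in WT implants than in visceral fat (0.24), 5 higher and 3 lower in KO implants than in visceral fat (0.10), and none higher and 1 lower between KO and WT implants (-0.16). The background shares are those given above for each comparison: 15.9% higher for the first, 16.4% and 8.25% for the second and 6.67% and 4.1% for the third.

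The next list holds genes that copy and transcribe mitochondrial DNA, and their part in the levels of the 13 mitochondrial genes was not tested. Of 26 tested, 4 were called higher in WT implants than in visceral fat (median 0.18), 1 lower in KO implants than in visceral fat (0.04) and 3 lower in KO than in WT implants (-0.19), with none called the other way. For this list and the next, the share of all genes called higher in the first comparison was 15.9%, which the count of 4 is near. The shares were 16.4% higher and 8.25% lower in the second, and 6.67% higher and 4.1% lower in the third. The 3 called lower in KO than in WT implants were Polg, the DNA polymerase of the organelle (-0.39 ± 0.09, SE, adjusted p = 0.0236 by limma), Twnk, its helicase (-0.64 ± 0.15, adjusted p = 0.0272), and Tfb1m, a methyltransferase of the ribosomal RNA (-0.85 ± 0.22, adjusted p = 0.0444). Lrpprc, which stabilizes mitochondrial messages, was higher in WT implants than in visceral fat (0.46 ± 0.09, adjusted p = 0.0100), as was Tfam, which packs the DNA and starts its transcription (0.38 ± 0.10, adjusted p = 0.0260). In MWM minus MWF, 3 of the 26 were called lower, Polg, Tfam and Polg2, against 12.3% of all genes, and none higher. The median of the list was -0.13 there, while all 13 mitochondrial estimates were above 0. Of 16 regulators of mitochondrial biogenesis, 3 were called higher in WT implants than in visceral fat (0.22), 1 higher and 1 lower in KO implants than in visceral fat (0.12), and none between KO and WT implants (-0.07). Esrra, a nuclear receptor that binds the AAGGTCA site, was higher in both implants than in visceral fat, by 0.50 ± 0.14 in WT and 0.69 ± 0.16 in KO, comparisons that share the visceral libraries.

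Of 17 electron carriers and enzymes of coenzyme Q synthesis, 6 were called higher in WT implants than in visceral fat (median 0.26), 4 higher and 3 lower in KO implants than in visceral fat (-0.14), and none higher and 3 lower between KO and WT implants (-0.18). The 3 were Coq8a (-1.71 ± 0.36, SE, adjusted p = 0.0190 by limma), Pdss2 (-0.69 ± 0.17) and Coq2 (-0.40 ± 0.10), all needed to make coenzyme Q. Etfdh, which feeds electrons from fat oxidation into coenzyme Q, was called higher in both implants than in visceral fat, by 0.51 ± 0.10 in WT and 0.60 ± 0.11 in KO. Of 18 genes of the citric acid cycle and pyruvate entry, 3 were called higher in WT implants than in visceral fat (0.16), 1 higher and 1 lower in KO implants than in visceral fat (-0.14), and none between KO and WT implants (-0.30). The list of brown and beige fat genes holds the left-out Cox7a1 and Cox8b. Of its 10 genes 8 were called higher in WT and 6 in KO implants than in visceral fat. Between KO and WT implants 1 was called higher, Ucp1 at 2.97 ± 0.50, and none lower. The median of this list was nevertheless below 0 there, at -0.39. In 1 of its genes the KO implants lay above all WT implants, and in 2 below all of them. Of all genes tested, 15.9% were called higher in WT implants than in visceral fat, which the citric acid cycle count of 3 is near. The shares were 16.4% higher and 8.25% lower for KO implants against visceral fat. Between KO and WT implants they were 6.67% higher and 4.1% lower.

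The processed pseudogenes, which share sequence with their parent genes and whose counts may hold reads of these, were low. Their CPM ranged up to 3.66 over the 14 libraries, 4 of the 6 could be tested, and none was called in any of the 7 comparisons.

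The 2 libraries kept out of the means were set against the range of each group. EVFN1, labelled visceral fat without surgery, was within the visceral range in 46 of 79 nuclear and 6 of 13 mitochondrial genes and below it in 27 and 7. It was within the range of the KO implants in 47 nuclear and 12 mitochondrial genes, and below the lowest WT implant in 68 and 13. The nuclear genes thus fell within either range about equally often. MKM1, labelled a KO implant, was within the range of the other KO implants in 15 nuclear and 4 mitochondrial genes, above it in 27 and 9 and below it in 37 nuclear genes. It was within the visceral range in 38 nuclear and 10 mitochondrial genes and below it in 39 and 3, and below the lowest WT implant in 67 and 10.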

How the data were processed

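RNA of 16 libraries was depleted of ribosomal RNA and primed with random hexamers, per the labels' protocols. The submitters' processing notes name cutadapt 2.7, FastQC 0.11.4, STAR 2.5.4, featureCounts of Subread 1.6.3 and mm10, without settings, so the handling of strand and of reads with several matches is not known here. The authors deposited 1 table of CPM (read counts scaled to the library total). Its values are whole multiples of 1 read (tolerance 0.001 read) in 100% of cells, which gave totals of 16444965 to 25805502 reads, where 1 read is worth 0.0388 to 0.0608 CPM; edgeR and DESeq2 used these reads as alternatives. Genes with at least 1 CPM in 2 libraries (17871) were fitted with limma 3.58.1 (trend, robust; R 4.3.3) on log2(CPM + 0.5) with 8 group means over 14 libraries, codes weighted equally, and Benjamini-Hochberg adjustment over all genes (threshold 0.05). Folds are on the log2(CPM + 0.5) scale and understate changes of low genes. EVFN1 and MKM1 were left out of the fit. Genes named by rule are the 13 mitochondrial genes, 10 core nuclear subunits, forms of the same subunit, the 3 largest called rises and falls in each comparison, or the 2 smallest p where none was called, and up to 3 genes of another list by p; others named were chosen after their values were seen. The members and gene lists were chosen with earlier results of these data known. The fit was tested on simulated data. Lengths and positions are from GENCODE M21 (99.0% of symbols matched) and promoters from RefSeq.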

Additional observations from a re-analysis of the deposited data

Results flagged for a closer look

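Among 100 tests for a library far from its group, of which chance flags about 1 in 20, 3 stood out. Sdhb in WT implants was at 176.2 CPM in MWF1, Atp5g3 in visceral fat at 214.8 CPM in EVM2, and mt-Nd1 in visceral fat at 3573.5 CPM in EVFY1.

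The chromosome 1 copies of the mitochondrial block, which enter no comparison, were counted in every library, with the lowest sum at 360.3 CPM in MKF2. KO minus WT implants differed in sign between the male and female codes for Cox6b2 (0.457 CPM in males and -0.591 in females) and for Cox7a2l (15.4 CPM in males and -17.0 in females). Neither difference between sexes was tested, and the male KO side is the single library MKM2.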

How the results depend on the processing

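The direction of the median KO minus WT difference held under every scaling tried. Counts of called genes were less stable, and for each that moved the cause was not tested, apart from the smaller number of libraries where some were left out. With all 16 libraries as labelled, WT implants against visceral fat had 6 nuclear calls by limma in place of 10, and 1 by edgeR. KO implants against visceral fat and KO against WT implants had 0 nuclear and 0 mitochondrial calls by either. WT implants against subcutaneous fat had 0 nuclear calls by either. The edgeR fit of all 16 libraries was chosen after seeing the data, and so was leaving out MWF1 and ESM2 together. For WT implants against visceral fat, median-of-ratios scaling gave 6 nuclear calls and no filter 5, and the mitochondrial count of 0 became 2 with DESeq2 and 3 when only the groups compared were fitted. For KO implants against visceral fat, the nuclear count of 6 became 17 with DESeq2 and 1 with no filter or with only the groups compared, and the mitochondrial count of 4 became 9 with DESeq2, 1 with edgeR, 0 with only the groups compared and 2 without MWF1 and ESM2. For KO against WT implants, the nuclear count of 4 became 8 with CPM over nuclear genes only, 24 with only the groups compared, and 2 with edgeR, median-of-ratios scaling or no filter, and the mitochondrial count of 5 became 11 with DESeq2, 1 with edgeR and 2 without MWF1 and ESM2. WT implants against subcutaneous fat had 0 nuclear calls with edgeR and 4 without MWF1 and ESM2, visceral against subcutaneous fat 1 with DESeq2, and MWM against MWF 7 with DESeq2 and 2 with median-of-ratios scaling. The log2 ratio of the mitochondrial to the nuclear sum, by the median over genes, became -0.18 for WT implants against visceral fat (from 0.10) and -0.078 against subcutaneous fat (from 0.10), and it was 0.29 for MWM against MWF with the 5 mitochondrial genes without a near-identical copy (from 0.24). By the median over genes it was also -0.65 for KO implants against visceral fat (from -0.37) and -0.27 for EVM against EVFY (from -0.50), the latter -0.35 with the 5 genes.

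Leaving out single libraries gave 1 to 21 nuclear and 0 to 1 mitochondrial calls for WT implants against visceral fat, 0 to 12 and 0 to 10 for KO implants against visceral fat, 0 to 6 and 0 to 0 for WT implants against subcutaneous fat, 0 to 13 and 0 to 11 for KO against WT implants, and 0 to 0 in the other 3 comparisons. The log2 ratio ranged from 0.03 to 0.17, -0.63 to -0.24, -0.04 to 0.24 and -0.73 to -0.34 in these 4, and from -0.14 to 0.14 for visceral against subcutaneous fat, 0.21 to 0.27 for MWM against MWF and -0.71 to -0.29 for EVM against EVFY. Libraries with the same number in different codes did not deviate together in a steady direction (correlations of -0.44 to 0.34, median -0.05, over 15 pairs of codes). MKM and EVFN, each left with a single library, could not enter. With so few libraries a code, this does not decide whether some libraries share an animal or a batch. With the replicate number as a block, 2 mitochondrial genes were called in KO implants against visceral fat and 2 in KO against WT implants. No library has a depth that sets these counts apart, but genes near 1 CPM, such as Cox6b2 and mt-Atp8 in MKF2, rest on few reads.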
